A study of Mus musculus with 12 samples.

Results

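The comparison of injured with sham-operated spinal cord in total RNA rests on 6 of the 12 arrays of the series, 3 from injured and 3 from sham cord, and covers every gene on them rather than a chosen set. All animals were wild-type female C57BL/6 mice aged 10 weeks. In the injured group 80% of the cord was cut across, the sham group had a laminectomy only (removal of the bone over the cord), and 2.5 cm of cord centred on the site was collected 9 hours later. Total RNA came from an aliquot of each Dounce homogenate, before the rest went to a polysome gradient, and 5 µg of it was labelled for an Affymetrix array. The sample titles call the controls naive, but both groups had the laminectomy, so a response to the laminectomy is shared by both. The titles number 3 biological replicates a group. How many animals went into each is not given in the labels, so p-values measure the spread between these samples. The question the comparison addresses is which transcripts change in amount in cut cord within the first hours.

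A spinal cord injury opens vessels, tears axons and kills cells, and the tissue answers first with ligands such as interleukin-1, interleukin-6 and chemokines made by glia, vessel cells and arriving leukocytes. Interleukin-6-type ligands act through the shared receptor chain gp130 and the kinase JAK on the transcription factor STAT3, interleukin-1 and TNF act on NF-kB, and both routes switch on their own inhibitors. Neutrophils enter within hours and monocytes follow, while the scar of astrocytes and fibroblasts and the loss of myelin come later.

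Each of 10371 genes was represented by its brightest probe set. Values are the deposited log2 values, differences are injured minus sham with the standard error (SE) from limma over 3 arrays a group, and a gene was called at a Benjamini-Hochberg adjusted p of 0.05 over all genes tested. By that rule 6242 genes (60.2%) differed, 4369 (42.1%) higher and 1873 (18.1%) lower in injured cord. The values of the 2 groups were also spread differently: the SD over all probe sets of an array was 1.49 to 1.52 on the sham arrays and 1.63 to 1.66 on the injured ones. Among the 1038 dimmest genes 53.9% were called lower and 5.01% higher, and among the 1037 brightest 2.22% were lower and 72.5% higher. After quantile normalization of these 6 arrays, which gives them all 1 distribution, 3650 genes (35.2%) were called, 2030 (19.6%) higher and 1620 (15.6%) lower, and the median change over all genes moved from 0.12 to 0.01. Centring each array on its median gene gave 2322 higher and 3473 lower. Of the genes called higher as deposited, 1822 were also higher after quantile normalization, 2541 were not called and 6 were called lower.

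**Figure D1:**
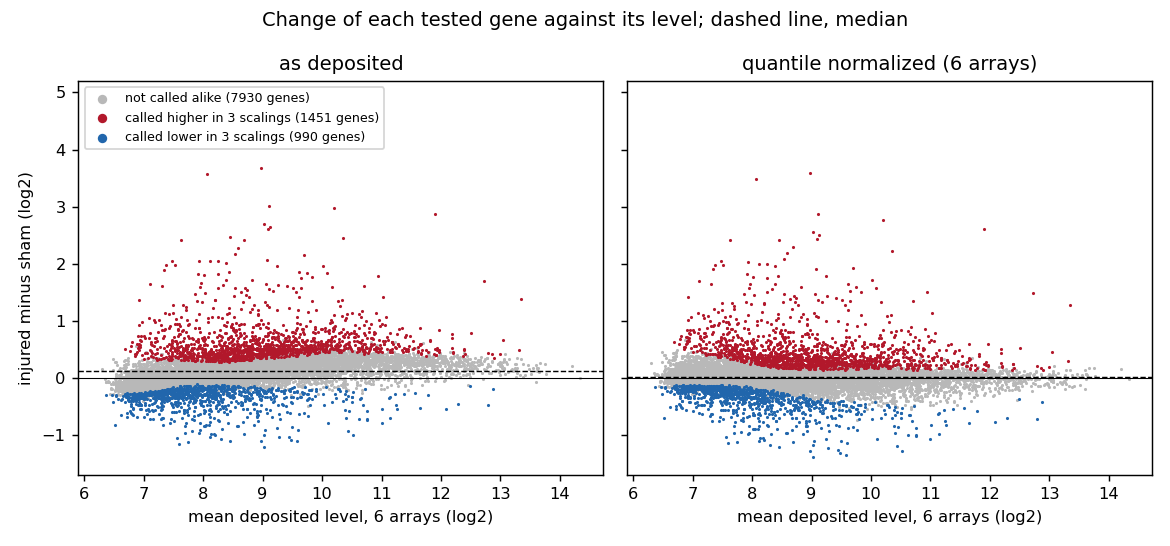
Injured minus sham (log2) of each tested gene against its mean deposited level on the 6 arrays (log2), as deposited on the left and after quantile normalization of the 6 arrays on the right. Red and blue points are the 1451 genes called higher and the 990 called lower in 3 scalings; the dashed line, the median of all genes, lies at 0.12 on the left and at 0.01 on the right.

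A change is therefore described below as holding in 3 scalings where it was called in the same direction as deposited, after quantile normalization and after centring the arrays on their median gene. That left 2441 genes (23.5%), 1451 higher (14%) and 990 lower (9.55%), the background for the counts that follow. Size separated the calls: of the 807 genes that differed by 0.5 to 1 every one was called and 97% held, whereas of those at 0.25 to 0.5 98.4% were called and 39.9% of these held. All 132 genes that were at least 2-fold higher (1.27%) and all 15 that were at least 2-fold lower (0.145%) held. The 18 probe sets for 4 control transcripts added at hybridization were dimmer on the injured arrays by 0.55 on average. With the arrays set level on these controls, the median change of all genes was 0.67, and 9976 genes (96.2%) were called higher and 48 (0.463%) lower. Each direction given here is therefore relative to the other genes on the arrays, not per cell or per amount of tissue.

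**Figure D2:**
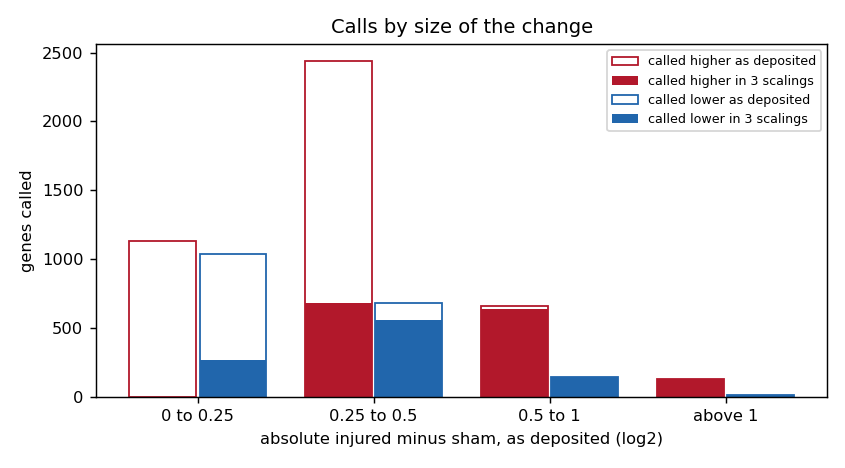
Number of genes called higher (red) and lower (blue) by the size of the deposited difference (absolute log2), with open bars for calls as deposited and filled bars for calls that held in 3 scalings. Between 0.25 and 0.5, 682 of 2441 higher calls and 561 of 678 lower calls held; above 1, all 132 and all 15 held.

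The identity of the tissue was plain on all arrays. Of 18 tested markers of spinal cord, the Hox genes of trunk levels and genes of motor and inhibitory neurons, 15 lay above every absent-control probe set (bacterial sequences that should not bind) on all 6 arrays, and Hoxc5 lay above them in neither group. On the 3 sham arrays the summed level of the markers was 13.36 to 13.42 and on the injured ones 13.48 to 13.55. Hoxc6, a patterning gene of the brachial and thoracic cord, was −0.59 ± 0.07 (adjusted p = 2.4e-05), and 4 other markers were lower in 3 scalings. In homogenised tissue fewer cells of a type and less RNA per cell cannot be told apart, here and in every cell-type result below.

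The interleukin-6 family was represented by 19 tested genes, of which 13 were called higher and 4 lower, and 9 and 2 of them in 3 scalings. Its median change was 0.46 as deposited and 0.24 after quantile normalization, against 0.12 and 0.01 over all genes. Il6, the founding ligand, lay at 6.36, 6.20 and 6.29 on the sham arrays and 7.43, 8.33 and 8.03 on the injured arrays. No sham array was above the absent controls and all injured arrays were, which gave a rise of at least 1.86-fold. Lif, a second ligand of the family, was likewise above the absent controls on the injured arrays only and rose at least 1.43-fold.

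The receptors did not share 1 direction. Osmr, the receptor chain for oncostatin M, lay at 7.59, 7.30 and 7.58 on the sham arrays and 9.99, 10.06 and 9.64 on the injured arrays, a difference of 2.41 ± 0.14 or 5.32-fold (adjusted p = 4.9e-08). All injured arrays were far above all sham arrays, and the rule for the largest rises admitted no overlap. The second probe set of Osmr differed by 0.84. Il6st, which encodes gp130, was 0.65 ± 0.09 on its brightest probe set and lower on its other 2, at −0.25 and −0.48. Il6ra, the specific interleukin-6 receptor, was lower at −0.30 ± 0.05, Cntfr was not called at −0.22 ± 0.10, and Lifr was 0.47 as deposited and 0.18, not called, after quantile normalization. Averaged over its probe sets Il6st was −0.03. Inside the cell Jak2 was 0.43 ± 0.07 and Stat3 was 1.19 ± 0.07 (adjusted p = 4.6e-08). Socs3, the feedback inhibitor that STAT3 switches on, lay at 7.29, 6.91 and 7.22 on the sham arrays and 10.96, 11.10 and 10.39 on the injured arrays. Of the 3 probe sets for Stat3 the brightest carried the rise, and the other 2 differed by 0.32 and −0.05.

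**Figure D3:**
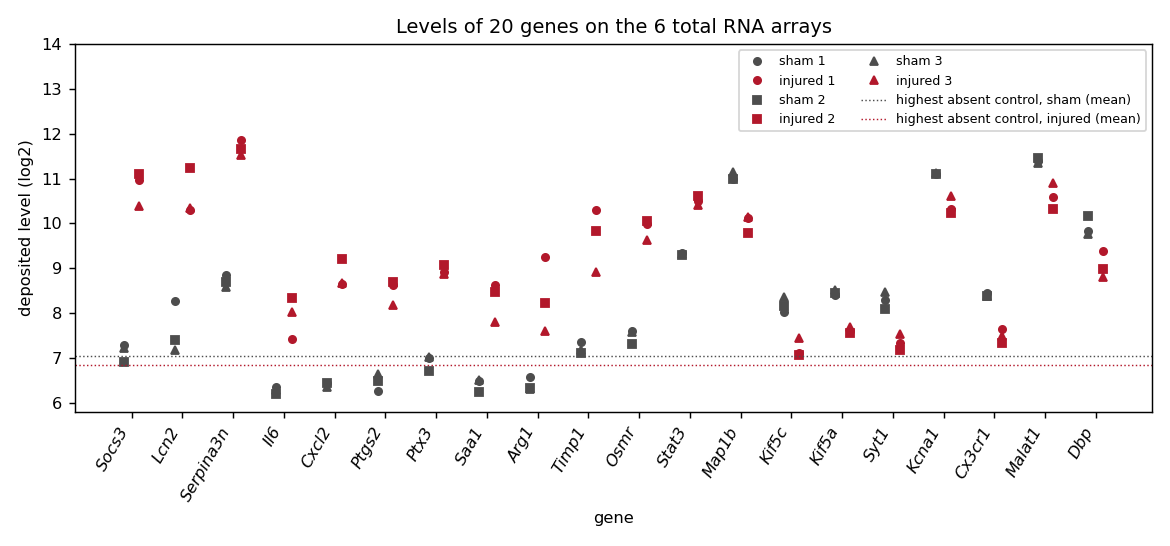
Deposited level (log2) of 20 genes on the 3 sham arrays (grey) and the 3 injured arrays (red), with 1 symbol for each replicate number. Dotted lines mark the mean of the highest absent control on the sham (7.04) and injured (6.85) arrays. Il6, Cxcl2, Ptgs2, Ptx3, Saa1 and Arg1 lay at or below it on all sham arrays and above it on all injured arrays. Injured and sham arrays did not overlap for any gene shown, and the rule that drew most of them required this.

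The interleukin-1 and TNF list gave 16 genes higher and 3 lower of 22, with 15 and 0 in 3 scalings and a median of 0.48 (0.33 after quantile normalization). Il1b, the inducible interleukin-1 ligand, changed by 1.24 ± 0.17, and Il33, a nuclear cytokine released from damaged glia, by 0.90 ± 0.08. The receptors Il1r1 (1.07 ± 0.10), Il1rap (0.63 ± 0.06) and Tnfrsf1a (1.22 ± 0.08, adjusted p = 1.8e-07) were all higher. Il1rn, the natural antagonist of the interleukin-1 receptor, was above the absent controls on the injured arrays only and rose at least 1.42-fold. Il1r2, a decoy receptor, lay at 6.90, 6.92 and 6.95 on the sham arrays and 8.51, 8.23 and 7.44 on the injured arrays, a rise of at least 2.03-fold over the absent controls. Tnf itself did not share this direction: it was −0.19 ± 0.05 as deposited and not called after quantile normalization.

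Among 12 NF-kB subunits and inhibitors 9 were higher and 0 lower, 6 of the 9 in 3 scalings. Inhibitors and co-regulators that NF-kB switches on were among them: Nfkbiz was 0.95 ± 0.09 and Nfkbia 0.85 ± 0.11, Bcl3 was at least 1.93-fold higher with no sham array above the absent controls, and the subunit Rela was 0.51 ± 0.07. The C/EBP family, acute-phase transcription factors that act beside NF-kB, had 5 tested members, all higher and 3 in 3 scalings. Cebpb was 1.57 ± 0.14 and Cebpa 0.48 ± 0.08. Cebpd was 2.60 ± 0.15 on its brightest probe set and 0.10 on the second.

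Several products of these pathways went from no detection to a clear signal. Ptx3, a long pentraxin that opsonises debris, lay at 6.99, 6.71 and 7.03 on the sham arrays and 8.91, 9.07 and 8.87 on the injured arrays. Ptgs2, the inducible cyclooxygenase that makes prostaglandins, lay at 6.27, 6.48 and 6.65 on the sham arrays and 8.63, 8.70 and 8.18 on the injured arrays. Its second probe set differed by 0.75. Saa1, a serum amyloid of the acute phase, lay at 6.49, 6.23 and 6.51 on the sham arrays and 8.63, 8.46 and 7.79 on the injured arrays. The sham values of all 3 genes were at or below the absent controls on every array, and the lower bounds of their rises were 3.78-fold, 2.76-fold and 2.39-fold. In the prostaglandin and leukotriene list of 15 genes 6 were higher and 3 lower (4 and 1 in 3 scalings). Hpgd, which breaks prostaglandins down, was 0.97 ± 0.10, the leukotriene activator Alox5ap 0.58 ± 0.08, and Ltc4s, the leukotriene C4 synthase, was called lower, above the absent controls on 2 sham arrays and no injured array.

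To show the sequence at the start of genes of this group, promoters were read from RefSeq: 103 of the 132 genes at least 2-fold higher had one there (GRCm38.p6), taken as 250 bases before to 50 after the transcription start. The NF-kB letters, GGG, then any 2 bases, then TTTCC, searched on both strands as were all motifs, stood in 9 of them (8.74%) against 1.51% of the promoters of all 8319 tested genes that had one. The C/EBP letters TTGCNNAA stood in 19 (18.4%) against 8.23%. Only the promoters of Il6 and Fcgr3 among the 103 held both. The genes called higher in 3 scalings had shares of 2.24% and 9.22%, and those called lower 1.45% and 8.98%. Stretches of 120 bases from 8 of these promoters are printed to show where the letters lie, in capitals, in genes of cytokines, chemokines and the acute phase; they are 5′ to 3′ on the strand of the gene. The first 5 hold the NF-kB letters, Il6 the C/EBP letters as well, and the last 3 the C/EBP letters.
Cxcl2 (GRCm38.p6, chr5:90903756-90903875, plus strand): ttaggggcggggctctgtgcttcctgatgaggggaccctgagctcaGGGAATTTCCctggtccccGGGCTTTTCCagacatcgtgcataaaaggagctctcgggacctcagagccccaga
Cxcl1 (GRCm38.p6, chr5:90891110-90891229, plus strand): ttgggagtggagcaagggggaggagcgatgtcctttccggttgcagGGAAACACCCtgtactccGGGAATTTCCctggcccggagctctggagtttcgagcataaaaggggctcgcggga
Serpina3n (GRCm38.p6, chr12:104406482-104406601, plus strand): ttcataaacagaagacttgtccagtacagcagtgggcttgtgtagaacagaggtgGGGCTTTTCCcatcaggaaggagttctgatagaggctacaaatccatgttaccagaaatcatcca
Ccl9 (GRCm38.p6, chr11:83578607-83578726, minus strand): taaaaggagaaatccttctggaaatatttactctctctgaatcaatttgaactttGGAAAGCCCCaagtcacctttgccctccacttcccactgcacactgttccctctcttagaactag
Il6 (GRCm38.p6, chr5:30012973-30013092, plus strand): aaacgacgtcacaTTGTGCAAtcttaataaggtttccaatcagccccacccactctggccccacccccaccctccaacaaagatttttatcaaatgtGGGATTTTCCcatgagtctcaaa
Lcn2 (GRCm38.p6, chr2:32387870-32387989, minus strand): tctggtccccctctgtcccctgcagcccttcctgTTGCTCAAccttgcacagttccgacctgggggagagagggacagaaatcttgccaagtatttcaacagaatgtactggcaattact
Ptx3 (GRCm38.p6, chr3:66219774-66219893, plus strand): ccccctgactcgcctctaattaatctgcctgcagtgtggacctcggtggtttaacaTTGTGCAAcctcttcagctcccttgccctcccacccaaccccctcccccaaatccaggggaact
Saa1 (GRCm38.p6, chr7:46743099-46743218, minus strand): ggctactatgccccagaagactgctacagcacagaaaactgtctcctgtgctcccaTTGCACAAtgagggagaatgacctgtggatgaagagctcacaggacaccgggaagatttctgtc

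A match of letters is a description and not a measured binding site. Cxcl2 and Cxcl1 each held 2 NF-kB matches in the stretch shown. Other motifs were closer to their background: the AP-1 letters TGACTCA stood in 6.8% against 3.89%, the STAT letters TTCCNNGAA in 5.83% against 4.56%, the cyclic AMP element TGACGTCA in 2.91% against 3.07% and the hypoxia letters ACGTG in 22.3% against 24.6%. The CArG box stood in 1.94% against 1.47%. The heat shock motif was found in 0 of the 103, against 0.349% of all.

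Chemokines and their receptors numbered 29, of which 16 were higher and 5 lower (13 and 4 in 3 scalings, median 0.40 and 0.26). Cxcl2, a ligand that draws neutrophils, lay at 6.44, 6.44 and 6.36 on the sham arrays and 8.64, 9.21 and 8.66 on the injured arrays, from below the absent controls to at least 3.48-fold higher. Its neighbour Cxcl1, with the same activity, was 1.27 ± 0.24. The sham mean of Cxcl1, 6.86, lay below the mean of the highest absent control on the sham arrays, 7.04. Ligands that draw monocytes also rose: Ccl9 was 2.17 ± 0.17 and Ccl2 1.48 ± 0.17, and Ccl3 was at least 1.49-fold higher, with no sham array above the absent controls. Ccl12 lay at 7.52, 6.66 and 7.13 on the sham arrays and 9.30, 8.87 and 9.26 on the injured arrays. Of the receptors, Ccr1 was at least 2.11-fold higher on injured arrays, while Cx3cr1, the fractalkine receptor of microglia, lay at 8.45, 8.38 and 8.38 on the sham arrays and 7.65, 7.33 and 7.50 on the injured arrays, 1.88-fold lower (adjusted p = 5.2e-06). Its second probe set differed by −0.41.

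The interferon-response list had 18 of 27 genes higher and 0 lower, 13 in 3 scalings, with a median of 0.29 that did not shrink after quantile normalization (0.32). Gbp2, a guanylate-binding protein, was 1.62 ± 0.14. The membrane proteins Ifitm1 (1.62 ± 0.14), Ifitm2 (1.27 ± 0.10) and Ifitm3 (1.14 ± 0.19) restrict virus entry and also respond to interleukin-6. Irf8, a transcription factor of myeloid cells, was 0.70 ± 0.11, and the chemokine Cxcl10 0.55 ± 0.09. Some genes of class II antigen presentation went the other way: H2-Eb1 was −0.42 ± 0.10 and H2-Ab1 −0.35 ± 0.09. Cd74 (−0.15) and H2-DMa (0.09), also of class II, were not called. Of 16 presentation genes 5 were higher and 4 lower as deposited, and 0 and 3 in 3 scalings. The class I gene H2-K1 was 0.35 as deposited and 0.06 after quantile normalization.

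The calls of complement genes depended on the scaling. Of 20 genes 9 were called higher and 4 lower, and 2 and 1 held in 3 scalings. After quantile normalization 9 were higher and 1 lower, with a median of 0.16 against 0.01 over all genes. After centring 4 were higher and 6 lower. Serping1, the C1 inhibitor, was 0.82 ± 0.12, and Itgam, the integrin chain of complement receptor 3, 0.52 ± 0.09. Chains of C1q did not move together: C1qa was −0.76 ± 0.14 and C1qb 0.47 ± 0.13, and the C1qb value was not called after quantile normalization.

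Markers of leukocytes differed by kind. Of 18 monocyte and macrophage markers 14 were higher and 0 lower (13 in 3 scalings), with a median of 0.69 as deposited and 0.73 after quantile normalization. Their summed level was 12.31 to 12.40 on the sham arrays and 12.99 to 13.35 on the injured ones. Cd14, the co-receptor for bacterial lipid, lay at 7.52, 7.38 and 7.46 on the sham arrays and 9.64, 10.07 and 9.47 on the injured arrays. Chil3, a secreted lectin of activated macrophages, was 1.80 ± 0.16, and the Fc receptor Fcgr3 1.5 ± 0.13. Chil3 lay above the absent controls on only 1 sham array. The scavenger receptor Msr1, above the absent controls on no sham array, was at least 1.85-fold higher. Arg1, an enzyme that consumes arginine, lay at 6.57, 6.33 and 6.30 on the sham arrays and 9.25, 8.23 and 7.61 on the injured arrays; all sham arrays were below the absent controls, and the rise was at least 2.51-fold. Lyz2, lysozyme of the myeloid lineage, was not called, at 0.09 ± 0.12 (adjusted p = 0.55).

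The 16 neutrophil markers gave 9 higher and 4 lower (7 and 3 in 3 scalings). The summed level was 11.77 to 12.11 on sham and 12.38 to 13.02 on injured arrays. S100a9 lay at 9.68, 9.26 and 9.16 on the sham arrays and 10.99, 11.39 and 10.48 on the injured arrays and its partner S100a8, the calprotectin pair of neutrophil cytosol, at 10.04, 9.53 and 9.39 on the sham arrays and 10.93, 11.47 and 10.66 on the injured arrays. Clec4d, a lectin receptor above the absent controls on no sham array, was at least 1.55-fold higher and Csf3r, the receptor for the neutrophil growth factor G-CSF, was 0.39 ± 0.08. No granule protein of the list was higher in 3 scalings: Camp was −0.57 ± 0.08, Ngp −0.64 ± 0.11 and Ltf −0.35 ± 0.08, Mmp9 was 0.24 ± 0.09 and not called after centring or without any 1 of the arrays other than injured replicate 3, and Elane, Mpo and Mmp8, the last also called higher as deposited, were not above the absent controls on all arrays of either group.

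Genes of resting microglia gave 10 lower and 4 higher of 18, 9 and 2 in 3 scalings, with a median of −0.29 (−0.24 after quantile normalization) beside 0.12 (0.01) over all genes. Their summed level overlapped, at 13.12 to 13.32 on sham and 13.23 to 13.31 on injured arrays. The purine receptor P2ry12 was −0.66 ± 0.09, and Gpr34, above the absent controls on no injured array, was at least 1.21-fold lower. Mertk, a receptor for engulfing dead cells, was 0.79 ± 0.08 and the adaptor Tyrobp 0.64 ± 0.11, both higher. Tmem119, often used to tell microglia from monocytes, was −0.10 ± 0.05 and not called (adjusted p = 0.1).

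Other blood and border cells left weaker traces. Of 8 lymphocyte markers 6 were called lower, 1 of them in 3 scalings, and 5 of the 8 lay above the absent controls in neither group. Their summed levels were 11.02 to 11.10 and 10.84 to 11.32. Of the 3 red cell genes tested Alas2, the heme enzyme of erythroid cells, was 0.40 ± 0.09 and lay above the absent controls on 2 sham arrays. Schwann cell and root genes had 4 of 7 higher, 3 in 3 scalings. Pmp22, peripheral myelin protein, lay at 11.85, 12.32 and 12.19 on the sham arrays and 12.90, 13.05 and 12.76 on the injured arrays. Egr2, its regulator, was 0.94 ± 0.13 and lay above the absent controls on 2 sham arrays. Of 10 skeletal muscle genes 1 was called higher and 1 lower, neither in 3 scalings. The part of arriving cells or of root tissue in the gene changes was not tested.

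The rises were not of the same size on the 3 injured arrays. Of the 132 genes at least 2-fold higher, 101 (76.5%) were lowest on injured replicate 3. The share was 41.2% for all genes tested and 57.0% for all genes called higher. Timp1, an inhibitor of metalloproteases, was widest apart after Arg1, at 10.30, 9.83 and 8.92 on the injured arrays. The interferon-induced Slfn4 (9.81, 9.51 and 8.48) and Tfpi2, an inhibitor of serine proteases (10.34, 10.10 and 9.11), had the same order. Of the monocyte and macrophage markers 12 of 18 were lowest on injured replicate 3, and of the neutrophil markers 12 of 16. Heat shock and chaperone genes differed: 9 of 32 were lowest on that array and 19 on injured replicate 2. The sham arrays differed less, but Lcn2, the iron-binding lipocalin of the acute phase, was 8.26, 7.41 and 7.17 on them, and the connective tissue genes Mgp (9.69, 10.15 and 10.40) and Ogn (9.23, 9.73 and 9.95) were lowest on the array where Lcn2 was highest.

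**Figure D4:**
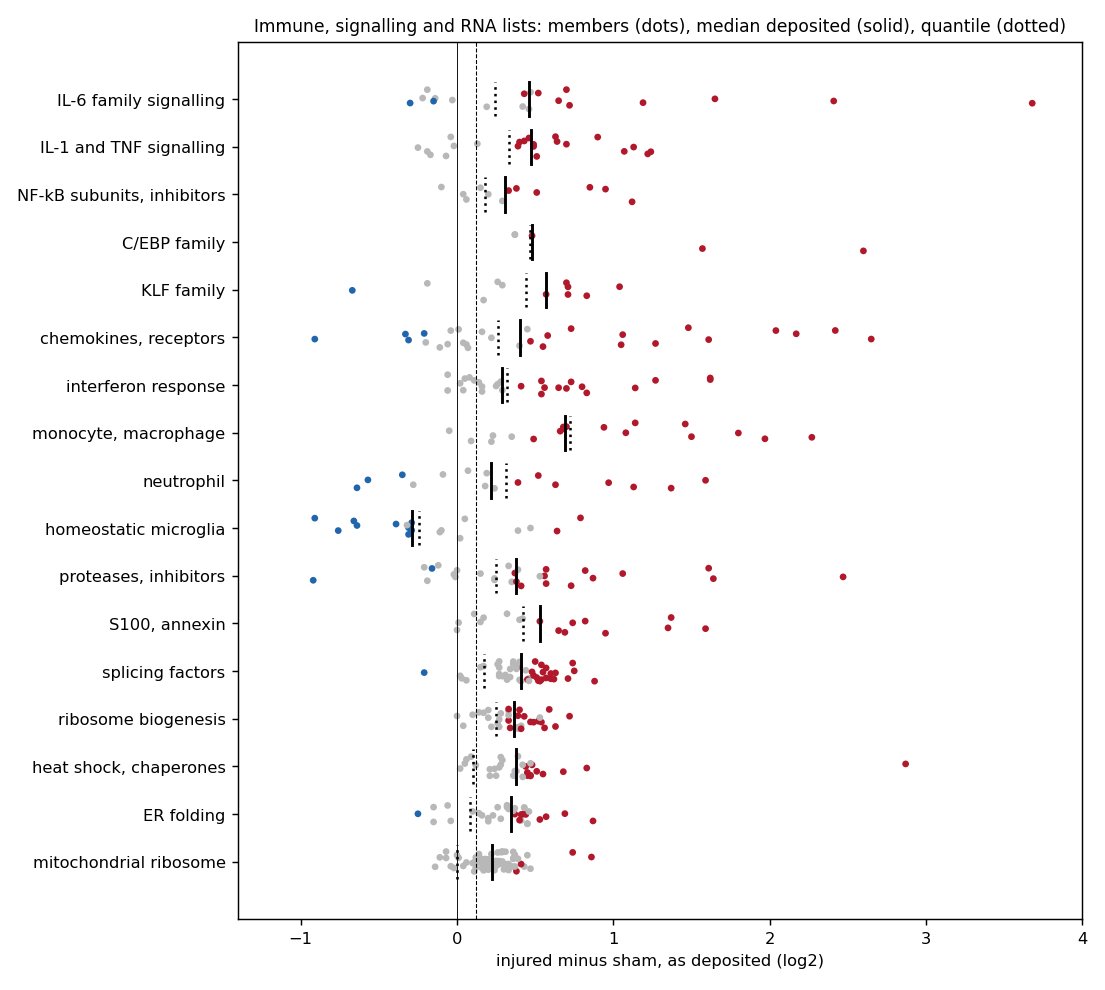
Injured minus sham (log2, as deposited) of the members of 17 immune, signalling and RNA-handling lists, 1 dot a gene, in red or blue where the change held in 3 scalings and grey otherwise. Solid bars are list medians as deposited and dotted bars after quantile normalization; the dashed line is the median of all genes, 0.12. The monocyte and interferon medians stayed at 0.73 and 0.32 after normalization, and that of the mitochondrial ribosome went from 0.23 to 0.00.

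Leukocyte adhesion genes of vessel walls and white cells rose in part, with 10 of 18 higher and 4 lower (7 and 2 in 3 scalings). Selp, the selectin that vessels expose first, was 0.91 ± 0.12 and the integrin chains Itgav and Itga5 0.78 and 0.52. Selp lay above the absent controls on only 1 sham array and Itga5 on 2. The blood-brain barrier list of 25 gave 10 higher and 4 lower (7 and 4 in 3 scalings, median 0.14 and −0.05). The glucose transporter Slc2a1 was 1.06 ± 0.08 and Slc3a2, the shared chain of amino acid transporters, 0.95 ± 0.08. Kdr, the main VEGF receptor, was −0.44 ± 0.06 and the glutamine transporter Slc38a3 −0.48 ± 0.06. Rhoj, a GTPase of endothelium, lay at 7.49, 7.51 and 7.53 on the sham arrays and 9.40, 9.31 and 9.40 on the injured arrays, among the tightest of the large rises, and Tm4sf1, a surface protein of vessel cells, was 1.85 ± 0.16.

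Matrix and protease genes went both ways. Of 28 proteases and inhibitors 19 were higher and 3 lower (13 and 2 in 3 scalings, median 0.37 and 0.25). A2m, a broad protease trap, lay at 10.07, 9.71 and 9.93 on the sham arrays and 11.79, 11.43 and 11.32 on the injured arrays. The proteases Adamts1 (1.64 ± 0.17), which cuts proteoglycans, and Adam8 (1.06 ± 0.11) were higher, and Serpinb1a, an inhibitor of neutrophil elastase, was lower at 10.00, 10.01 and 10.12 on the sham arrays and 9.17, 9.00 and 9.22 on the injured arrays. Among 28 collagen and laminin genes 9 were higher and 7 lower, 5 and 4 in 3 scalings. The basement membrane chains Col4a1 and Col4a2 were 0.95 ± 0.10 and 0.89 ± 0.07, whereas Col15a1, also of basement membranes, was −0.28 ± 0.07, Lama1 was called lower but lay above the absent controls on 1 sham array and no injured array, and Col1a1 of fibrous matrix was −0.44 ± 0.08. Tnc, a matrix glycoprotein of wounds, was 1.34 ± 0.11, the surface proteoglycan Sdc4 0.93 ± 0.09, and Vcan 0.68 ± 0.07. Tgm2, an enzyme that cross-links matrix, was higher on all 5 of its probe sets and 1.95 ± 0.28 on the brightest. Igfbp3, which binds insulin-like growth factors, lay at 8.24, 8.03 and 8.52 on the sham arrays and 10.58, 10.52 and 9.58 on the injured arrays.

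The TGF-beta and BMP list had 18 of 33 higher and 5 lower, 11 and 4 in 3 scalings. Receptors and first targets of the BMP branch were among the rises: Acvr1 was 0.67 ± 0.06, Smad1 0.80 ± 0.07, Id1 0.82 ± 0.12 and Id3 0.87 ± 0.16. Smad5, which carries the same signal as Smad1, was at least 1.18-fold lower and above the absent controls on no injured array. Of the TGF-beta branch Tgfbr2 was 0.68 ± 0.08 and the ligand Tgfb2 −0.39 ± 0.07. Ccn2, connective tissue growth factor and a target of that branch, lay at 8.60, 8.99 and 8.89 on the sham arrays and 11.07, 10.72 and 10.18 on the injured arrays.

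Astrocyte genes rose in part: 11 of 20 were higher and 1 lower, and 6 and 1 held in 3 scalings, with a median of 0.21 that fell to 0.02 after quantile normalization. Gfap, the astrocyte filament, was 0.76 ± 0.06 on its brightest probe set and 0.74 on the second. The connexin Gjb6 was 0.93 ± 0.09 and Aldh1l1, an enzyme of folate metabolism used to mark astrocytes, 0.78 ± 0.07. Fabp7, a fatty-acid binding protein of radial glia and young astrocytes, was lower at −0.58 ± 0.16. The water channel Aqp4 was −0.06 ± 0.06 (adjusted p = 0.42) on its brightest probe set and −1.52 on the second. Vim, vimentin, a filament of reactive glia and vessels, lay at 10.16, 10.42 and 10.37 on the sham arrays and 11.97, 11.66 and 11.56 on the injured arrays. In the list of 17 S100 and annexin genes, calcium-binding proteins of stressed and migrating cells, 13 were higher and 0 lower (9 in 3 scalings), led by S100a6 (1.35 ± 0.17) and Anxa3 (0.95 ± 0.11) beside the neutrophil pair.

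Myelin genes divided. Of 21 genes of oligodendrocytes and myelin 6 were higher and 6 lower as deposited, and 2 and 6 in 3 scalings, with a median of −0.04 that became −0.27 after quantile normalization. Mbp, myelin basic protein, was 0.00 ± 0.05 on its brightest probe set (adjusted p = 0.96), but 2 of its 8 probe sets were lower, at −1.93 and −1.28. Myrf, the master regulator of myelin genes, was 0.60 ± 0.07. Ugt8a, which makes the myelin lipid galactosylceramide, was −0.53 ± 0.07, the oligodendrocyte connexin Gjc3 −0.63 ± 0.10 and the transcription factor Olig1 −0.54 ± 0.10. Gjc3 lay above the absent controls on 2 injured arrays. Pllp, plasmolipin of myelin, lay at 10.88, 10.96 and 10.85 on the sham arrays and 10.05, 9.92 and 9.95 on the injured arrays. Elovl7, an enzyme that lengthens fatty acids, lay at 8.70, 8.63 and 8.57 on the sham arrays and 7.56, 7.46 and 7.80 on the injured arrays, 2.04-fold lower. Its other probe set, the brighter one on the 6 total RNA arrays, differed by −0.61. Of 30 sterol and fatty-acid genes 9 were higher and 5 lower as deposited, and 0 and 5 in 3 scalings. Fads2 (−0.61 ± 0.10), Dhcr7 (−0.48 ± 0.07) and Mvd (−0.35 ± 0.06) were among the 5. The list's median turned from 0.07 to −0.17 with quantile normalization. Precursor genes went both ways: Pdgfra, the growth factor receptor of oligodendrocyte precursors and of perivascular fibroblasts, was 0.99 ± 0.10, while 4 of the 8 members were lower in 3 scalings, C1ql1 at −0.37 ± 0.09 and Sox6 at −0.25 ± 0.06 among them. Of 8 genes of ependyma, the ciliated lining of the central canal, 6 were lower (4 in 3 scalings). The one with the lowest p, Tctex1d4, was above the absent controls on no array of either group.

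Among neuronal genes, potassium channels had 10 of 26 lower and 6 higher, 8 and 2 in 3 scalings, with a median of −0.02 (−0.09 after quantile normalization). Kcna1, the voltage-gated channel of the juxtaparanodes beside the nodes of Ranvier, lay at 11.11, 11.10 and 11.12 on the sham arrays and 10.32, 10.23 and 10.61 on the injured arrays. Its partner Kcna2 was −0.80 ± 0.06, Kcnc1 of fast-firing neurons −0.90 ± 0.12 (adjusted p = 4.5e-05) and Kcnh1 −0.60 ± 0.08. Kcnk1, a leak channel, was higher at 0.64 ± 0.10. Of 18 sodium and calcium channel genes 8 were higher and 5 lower as deposited, and 0 and 4 in 3 scalings. The median was 0.11 as deposited and −0.04 after quantile normalization. The largest fall was that of Cacna1b, the N-type calcium channel of nerve terminals, at −0.58 ± 0.07. The sodium channel gene Scn1a was 0.34 ± 0.06 as deposited, 0.04 after quantile normalization and −0.93 on its second probe set.

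Of 19 transmitter receptors 4 were higher and 7 lower as deposited, and 0 and 4 in 3 scalings. The AMPA subunit Gria2 was 0.47 ± 0.06 as deposited and 0.17 after quantile normalization, and did not hold in 3 scalings. The kainate receptor subunit Grik5 was −0.44 ± 0.08, and the AMPA subunit Gria4 −0.36 ± 0.07 and the NMDA subunit Grin2d −0.35 ± 0.07 were lower too. Gria4 lay above the absent controls on only 1 injured array. Among 35 synaptic genes 13 were called higher and 7 lower as deposited, but 1 and 7 in 3 scalings. The median went from 0.08 to −0.14. The higher one was Napb, at 0.47 ± 0.06 on its brightest probe set and 0.13, −0.11, −0.84 and −0.86 on the others. The largest fall of the list was that of Rph3a, at −1.16 ± 0.15, which lay above the absent controls on 2 injured arrays. Syt1, the calcium sensor of vesicle release, lay at 8.30, 8.09 and 8.46 on the sham arrays and 7.33, 7.17 and 7.54 on the injured arrays, and its second probe set differed by −0.58. Syn2, synapsin of the vesicle pool, was −0.62 ± 0.10, and Bsn, a scaffold of the release site, −0.34 ± 0.04. The neurofilament gene Nefm was 0.10 ± 0.06 and was not called (adjusted p = 0.14).

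Axonal transport genes were among the largest falls of the whole comparison. Of 30 tubulins, kinesins and microtubule-associated proteins 11 were higher and 9 lower, 3 and 8 in 3 scalings. Map1b, which stabilises microtubules in growing axons, lay at 10.98, 10.98 and 11.14 on the sham arrays and 10.12, 9.79 and 10.15 on the injured arrays, and its second probe set differed by −0.96. The kinesin motors of axons Kif5c and Kif5a lay at 8.03, 8.15 and 8.36 on the sham arrays and 7.12, 7.06 and 7.44 on the injured arrays, and at 8.41, 8.44 and 8.52 on the sham arrays and 7.59, 7.55 and 7.70 on the injured arrays. No injured array reached a sham array for any of these 3, and the rule for the largest falls admitted no overlap. Map2 of dendrites was −0.41 ± 0.10, and Bicd2, an adaptor of the opposite motor dynein, −0.88 ± 0.12. Tubb6, a tubulin isoform, was higher at 1.36 ± 0.12. In the 51 genes of axon guidance 17 were lower and 7 higher, 14 and 2 in 3 scalings, against backgrounds of 9.55% and 14%. Sema6d was −0.52 ± 0.07, Sema6a −0.44 ± 0.05, Lingo1, a partner of the Nogo receptor, −0.44 ± 0.06 and Epha4 −0.42 ± 0.06; Efna1 and Sema5a were the 2 that rose, at 0.34 ± 0.07 and 0.33 ± 0.05. As the mean of its probe sets Efna1 was 0.10 and not called.

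**Figure D5:**
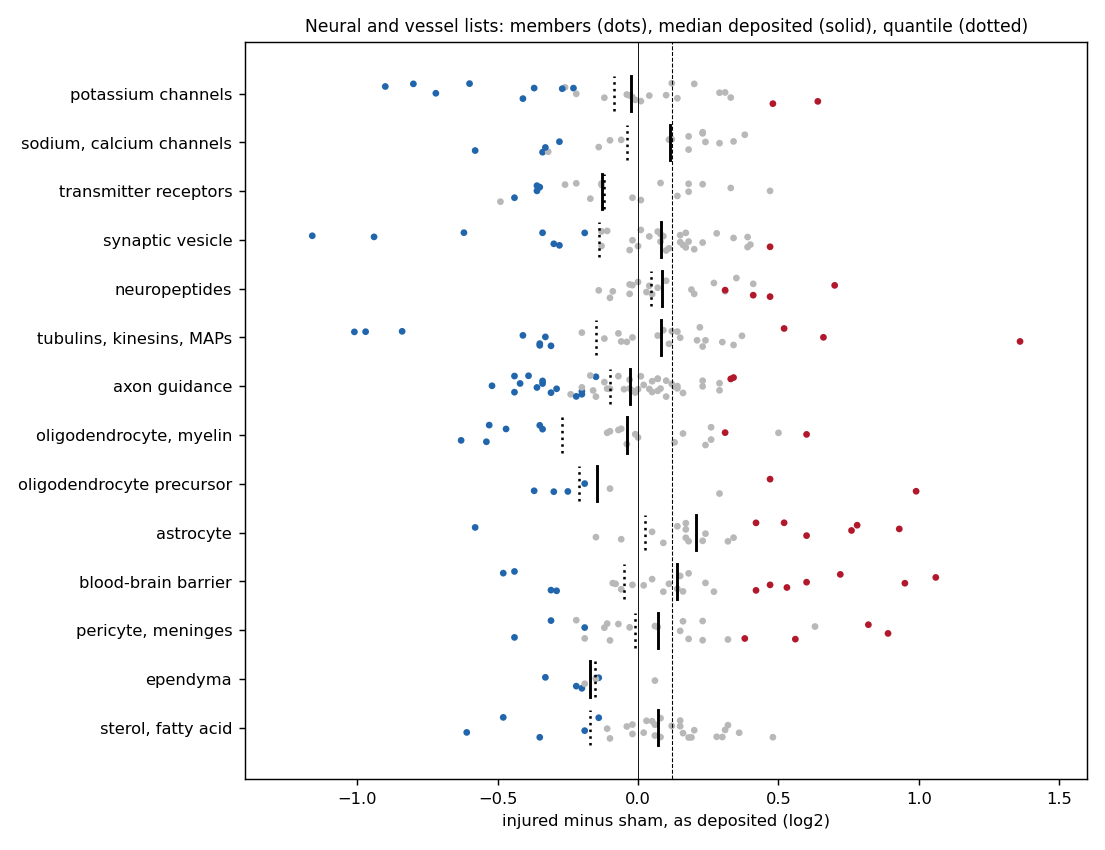
Injured minus sham (log2, as deposited) of the members of 14 neural, glial and vessel lists, 1 dot a gene, in red or blue where the change held in 3 scalings and grey otherwise. Solid bars are medians as deposited, dotted bars after quantile normalization, and the dashed line is the median of all genes, 0.12; the medians of the synaptic, microtubule and sterol lists changed sign, from 0.08, 0.08 and 0.07 to −0.14, −0.15 and −0.17.

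The neuropeptide list had a median near that of all genes, 0.08 (0.05 after quantile normalization) against 0.12 (0.01). Of all genes 42.1% were called higher as deposited and 14% were higher in 3 scalings. Of 22 peptides 9 were higher and 0 lower, 4 in 3 scalings: Penk, the precursor of enkephalins, was 0.70 ± 0.05, Adcyap1, which encodes PACAP, 0.47 ± 0.07, Gal, galanin, 0.41 ± 0.09 and Pdyn, the dynorphin precursor, 0.31 ± 0.06. Regeneration-associated genes had 21 of 31 higher and 4 lower (14 and 2 in 3 scalings), with Fos at 1.76 ± 0.15, Atf3 at 0.61 ± 0.09 and Jun at 0.53 ± 0.08. Among 27 growth factors and receptors 12 were higher and 6 lower as deposited, and 4 and 6 in 3 scalings. The ligand Tgfa was 0.54 ± 0.07 and higher in 3 scalings. Fgfr2 was −0.80 ± 0.07 and −0.69 on its second probe set, and the receptors for the GDNF family Ret and Gfra1 were −0.49 ± 0.06 and −0.45 ± 0.06. In the insulin-like growth factor axis of 19 genes 6 were higher and 2 lower in 3 scalings. The ligand Igf1 was −0.59 ± 0.11 and the receptor substrate Irs2 −0.82 ± 0.10, while Igfbp7, a binding protein, was 1.10 ± 0.09.

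Probe sets of a gene did not always point the same way. Of the 15 genes at least 2-fold lower 8 had another probe set, and in 3 of them (37.5%) another probe set was called higher; of the 132 that rose 2-fold 45 had another, and 2 (4.44%) disagreed. Among the genes called in 3 scalings the order was the opposite: 177 of 699 higher genes with another probe set (25.3%) and 37 of 308 lower ones (12%) had one called against them. Over all genes with several probe sets, 738 of 3989 had calls in both directions. Timp2 was 0.24 on its brightest probe set and −0.55, −0.82, −0.51 and −1.66 on the others. The splicing factor Sfpq was 0.74, 0.49, 0.45 and 0.34 on 4 and −1.29 on the remaining one. Il6st, Scn1a and Napb, given above, also had probe sets called in both directions. Of the other genes named here, Acvr1 (−0.14), Crim1 (0.27), Hspb8 (−0.26), Igfbp7 (−0.23), Klf9 (−0.66), Purb (0.17), Tgfbr2 (−0.18) and Zfp36l2 (−0.14 and −0.22) had a probe set called against the brightest one, with the differences given in brackets. The signal of Gapdh at its 3′ end over its 5′ end, a sign of how full-length the labelled RNA is, was 0.23 ± 0.05 (SD, n = 3) on sham and 1.4 ± 0.22 (SD, n = 3) on injured arrays. That difference is as large as an exact two-sided permutation test of 3 against 3 can show (p = 0.1, the smallest possible). The same measure was also higher on injured arrays for Actb (1.46 and 1.80) and Pcx (2.16 and 2.45) and lower for Tfrc (0.85 and 0.65), the groups apart in each. The part of RNA quality or of transcript ends in the gene changes was not tested. Malat1, a long nuclear RNA, lay at 11.40, 11.45 and 11.34 on the sham arrays and 10.58, 10.33 and 10.91 on the injured arrays, and all 5 of its probe sets were lower, with differences from −0.40 to −0.81.

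Other falls between ranks 11 and 30 touched metabolism, membranes and chromatin. Cpox, an enzyme of heme synthesis, lay at 9.14, 9.14 and 9.28 on the sham arrays and 8.25, 8.07 and 8.25 on the injured arrays. Atp8a1, a flippase that moves lipids between membrane leaflets, lay at 9.47, 9.53 and 9.60 on the sham arrays and 8.45, 8.43 and 8.70 on the injured arrays. The second probe sets of Cpox and Atp8a1 differed by −0.35 and −0.54. Slc38a1, a glutamine transporter of neurons, was −0.85 ± 0.09, and Kmt2c, a histone methyltransferase, −0.85 ± 0.07 (adjusted p = 1.3e-06). Stac2 was −1.01 ± 0.10, Susd4, a regulator of complement, −0.92 ± 0.13, and Crim1, which binds BMPs, −0.98 ± 0.21. The 15 falls of at least 2-fold shared an order on the injured arrays: 14 were lowest on injured replicate 2 and 13 highest on replicate 3. Of all 10371 genes 3714 were lowest on injured replicate 2 and 2535 highest on replicate 3. Without injured replicate 2 the number at 2-fold was 8. The mirror of the bright rises was a smaller set of bright falls, Pltp, which transfers phospholipids, at −0.74 ± 0.08 and Purb, a nucleic-acid binding protein, at −0.59 ± 0.12.

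A number of genes crossed the detection limit. On all 3 sham arrays 156 genes were at or below the highest absent control and on all 3 injured arrays above it. Their lower bounds ran up to 7.03-fold for Tfpi2, and among those not yet given were Ms4a6d, a membrane protein of macrophages (at least 2.77-fold), and Icam1, the ligand of leukocyte integrins (at least 1.68-fold). In the other direction 29 genes crossed. The limit itself was 7.03 to 7.04 on the sham arrays and 6.81 to 6.89 on the injured ones. A gene between these levels could cross upward without a change, so the 2 counts cannot be compared. The teneurin Tenm1, a synaptic adhesion protein, was at least 1.42-fold lower, the sodium-calcium exchanger Slc8a3 at least 1.31-fold, Resf1 at least 1.45-fold, and Atrn at least 1.38-fold.

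Feedback inhibitors were part of the response. Of 15 inhibitors of MAP kinase signalling 9 were higher and 2 lower, 5 and 2 in 3 scalings. Errfi1, a brake on the EGF receptor, was 1.11 ± 0.06, and the phosphatases Dusp1 and Dusp6 were 1.06 ± 0.08 and 0.91 ± 0.07, while Dusp7 and Dusp8 were −0.53 ± 0.06 and −0.43 ± 0.08. Fkbp5, a chaperone of steroid receptors induced by glucocorticoids, lay at 8.61, 8.52 and 8.72 on the sham arrays and 10.80, 11.02 and 10.49 on the injured arrays, and Sgk1, a kinase with the same induction, at 10.33, 10.01 and 9.81 on the sham arrays and 11.38, 11.84 and 12.29 on the injured arrays. The order of the injured arrays differed between the 2, with replicate 3 lowest for Fkbp5 and highest for Sgk1. The second probe set of Fkbp5 differed by 0.23, against 2.15 on the brightest. Angptl4, a secreted inhibitor of lipoprotein lipase, lay at 7.54, 7.16 and 7.41 on the sham arrays and 9.13, 9.61 and 9.45 on the injured arrays. In the Krüppel-like family 8 of 11 were higher and 2 lower (6 and 1 in 3 scalings): Klf6 was 1.04 ± 0.09, Klf13 0.83 ± 0.08, Klf9 0.70 ± 0.05 and Klf3 −0.67 ± 0.11.

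The clock genes went both ways. Of 20 genes 13 were higher and 6 lower, and 8 and 5 in 3 scalings. The repressors Nfil3 (0.93 ± 0.09) and Bhlhe40 (0.86 ± 0.12) and the core genes Arntl (0.43 ± 0.06), Npas2 (0.49 ± 0.09), Cry1 (0.44 ± 0.08) and Per1 (0.43 ± 0.07) were higher. The output factor Dbp, which binds the DNA site that Nfil3 blocks, lay at 9.84, 10.16 and 9.77 on the sham arrays and 9.38, 8.98 and 8.81 on the injured arrays. Nr1d1, a repressor of Arntl, was −0.23 ± 0.05, and Per3 was lower at −0.15 ± 0.06, a call lost without any 1 of the arrays other than injured replicate 2. The hour of day at which cords were taken is not given in the labels.

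Stress pathways rose broadly as deposited and narrowly in 3 scalings. Of 31 antioxidant, heme and iron genes 22 were higher and 2 lower, 9 and 1 in 3 scalings. Hmox1, which breaks heme down, was 1.72 ± 0.08, the metallothionein Mt2 lay at 11.98, 11.78 and 11.89 on the sham arrays and 13.56, 13.59 and 13.57 on the injured arrays, and Cp, the iron-oxidising ceruloplasmin, was 1.51 ± 0.21. Of 32 heat shock and chaperone genes 27 were higher and 0 lower, 11 in 3 scalings, and the median fell from 0.37 to 0.10 with quantile normalization. Hspb1, a small heat shock protein of injured neurons and glia, lay at 10.42, 10.37 and 10.61 on the sham arrays and 13.56, 13.28 and 13.16 on the injured arrays. The next members were far smaller: Hspa1b was 0.83 ± 0.14, Hspb8 0.68 ± 0.08 and the mitochondrial Hspd1 0.55 ± 0.06. ER folding genes had 25 of 34 higher (9 in 3 scalings), with Xbp1 at 0.87 ± 0.07 and Dnajc3 at 0.69 ± 0.08. The integrated stress response had 20 of 28 higher and 3 lower (8 and 2 in 3 scalings): the stress-induced nuclear protein Nupr1 was 1.15 ± 0.15 and Ppp1r15b, which restarts translation, 0.80 ± 0.08. Sesn2 was lower, at −0.44 ± 0.06.

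Genes of growth arrest and survival rose in part. Among 29 genes of the p53 response and growth arrest 21 were higher and 3 lower, 12 and 3 in 3 scalings. Cdkn1a, the p21 inhibitor of the cell cycle, lay at 9.16, 9.14 and 9.20 on the sham arrays and 10.75, 11.16 and 11.08 on the injured arrays, and Gadd45g and Gadd45a were 1.42 ± 0.11 and 1.21 ± 0.11. Of 28 BCL2 and caspase genes 11 were higher and 4 lower in 3 scalings: Mcl1 (1.01 ± 0.07) and Cflar (0.57 ± 0.05) protect cells, Casp4, an inflammatory caspase above the absent controls on no sham array, was at least 1.38-fold higher, and the survival gene Bcl2 was lower at −0.32 ± 0.06. The cell cycle list did not rise as a whole. Of its 25 genes 8 were higher and 3 lower as deposited, and 4 and 0 in 3 scalings. Of all genes 42.1% were called higher and 14% were higher in 3 scalings. The list's median was 0.02 (0.06 after quantile normalization) against 0.12 (0.01) over all genes. The 4 were Myc (0.84 ± 0.09), Pcna (0.60 ± 0.07), Mcm4 (0.52 ± 0.09) and Mcm7 (0.50 ± 0.06). The mitotic genes Top2a and Mki67 lay at or below the absent controls on every sham array. Of 31 glycolysis and hypoxia genes 26 were called higher and 10 held: Pdk4, which turns pyruvate away from mitochondria, was 1.43 ± 0.12, Hk2, the inducible hexokinase, 1.05 ± 0.09, and Adm, adrenomedullin, was at least 1.61-fold higher with no sham array above the absent controls.

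Genes of RNA and protein synthesis gave many moderate rises. Splicing factors had 42 of 47 higher and 1 lower, 21 and 1 in 3 scalings, with a median of 0.41 (0.17 after quantile normalization). Clk4, a kinase of splicing factors, was 0.88 ± 0.08 (adjusted p = 1.1e-06), Srsf2 0.75 ± 0.09, Srsf3 0.71 ± 0.09 and Hnrnph1 0.62 ± 0.06. Ribosome biogenesis had 31 of 34 higher and 0 lower, 16 in 3 scalings, with a median of 0.37 (0.25): the nucleolar proteins Gnl3, Ncl and Npm1 were 0.72 ± 0.07, 0.63 ± 0.07 and 0.52 ± 0.05. Of 42 initiation and elongation factors 35 were higher and 12 held, led by Eif1a (0.77 ± 0.09), Eef1d (0.72 ± 0.07) and Eif5b (0.66 ± 0.07). The mitochondrial ribosome set a contrast: 36 of 72 genes were higher and 0 lower as deposited, but 4 held in 3 scalings and the median of 0.23 became 0.00. Mrps6 (0.86 ± 0.09) and Mrpl41 (0.74 ± 0.07) were 2 of those 4.

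Proteins that bind AU-rich elements and set the life of cytokine mRNAs had 19 of 22 higher and 2 lower, 8 and 2 in 3 scalings. The decay factors Zfp36, Zfp36l1 and Zfp36l2 were 1.37 ± 0.11, 1.16 ± 0.14 and 0.78 ± 0.15. Elavl4, a stabilising protein of neurons, was 0.64 ± 0.07.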

How the data were processed

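RNA was measured on 12 Affymetrix arrays, and the 6 of total RNA are compared here. The authors deposited a table of log2 values, a scale taken here from their range (5.26 to 14.65). How they corrected background and normalized is not given in the sources used here. Of 22690 probe sets, 20393 named 1 gene in the platform annotation supplied, 691 several and 1606 none.

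Probe sets above the 25th percentile of their array on at least 3 of the 12 arrays were kept (16566). The brightest over the 12 arrays stood for its gene. This left 10371 genes, of which 10362 had a symbol in the RefSeq table of GRCm38.p6. Differences came from limma 3.58.1 (R 4.3.3, statmod 1.5.0), with a mean for each of 4 groups, 8 residual degrees of freedom and an intensity trend. P-values were two-sided and adjusted by Benjamini-Hochberg over all genes tested. The polysome arrays entered only through the filter, the choice of probe set and the shared spread. Arrays have no depth; their number limits the precision.

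The members and lists were chosen with earlier results of these data known. Genes were drawn by a rule from ranks 1 to 30 each way and the 4 members with the lowest p in each list. Ranks 1 to 30 held only genes called the same way as deposited and after quantile normalization. Their groups also had to be free of overlap, with the brighter group above the absent controls. The rule also took the widest ranges, crossings of the detection limit, opposite probe sets and the brightest changes. Not every gene that met it is named, and of the falls at ranks 1 to 10 only Rph3a is. Clone names were skipped. Other genes named were chosen after their values were seen. On simulated data with 50 changed genes of each size among 10371, the test recovered 38% of changes of 0.25, 94% of 0.5 and 100% of 1. Of its calls 4.7% were false. The simulated arrays lacked the difference in spread between the real groups, so these rates need not hold for the real arrays. Alternatives covered the filter, the probe set rule, the scaling, the moderation, a minimum change, the replicate block and each array left out. Scaling to hybridization controls, and quantile normalization with a fit on 6 arrays, were chosen after seeing the data.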

Additional observations from a re-analysis of the deposited data

Results flagged for a closer look

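Probe sets that the gene comparison left out also differed. Of 532 probe sets that name several genes, 248 were called higher and 88 lower, and 13 were at least 2-fold higher. The one with the largest rise went from 7.39 to 10.54, a difference of 3.15 ± 0.18 (SE, 3 arrays a group). Of 919 that name no gene, 296 were higher and 294 lower, and 10 were at least 2-fold higher, the largest with 2.62 ± 0.30. These signals stand outside the comparison and above the sham level; no gene is assigned to them here. For comparison, 42.1% of the genes tested were called higher and 18.1% lower, with a median change of 0.12; the medians were 0.18 for the probe sets that name several genes and 0.00 for those that name none.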

How the results depend on the processing

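The counts moved with scaling and with a minimum change. The deposited values gave 70% of calls higher, quantile normalization of the 6 arrays 55.6%, centring 40.1% and cyclic loess 53.7%. Quantile normalization of the 6 arrays gave 3650 calls, 2030 higher and 27 at least 2-fold lower. Over 12 arrays it gave 2360 higher and 41 at least 2-fold lower, and with a fit on the 6 arrays alone 2675 and 27. Centring gave 2322 higher, 3473 lower and 30 at least 2-fold lower, and cyclic loess 3668 calls, 1969 higher and 28 at least 2-fold lower. Setting the arrays level on the hybridization controls gave 10024 calls, 9976 higher, 48 lower, 1054 at least 2-fold higher and 0 at least 2-fold lower. Without a filter 2865 genes were lower, and with one at the array median 657. Averaging the probe sets of each gene left 8 at least 2-fold lower, and a minimum change of 0.25 left 1152 calls, 964 higher and 188 lower. Leaving out each array gave 5228 to 5786 calls, 3652 to 4082 higher, 1569 to 1704 lower, 121 to 160 at least 2-fold higher and 8 to 19 at least 2-fold lower. Deviations of arrays with the same replicate number were hardly correlated (−0.06, 0.07 and −0.06), which cannot show whether the numbers pair the samples. With the number as a replicate block 4277 genes were higher and 1832 lower. Of 261 genes followed through these settings, Mmp9 (0.18 to 0.35) and Per3 (−0.18 to −0.13) lost their call with an array left out. No other called gene of the 261 did, and 46 lost it under the minimum change. Directions turned for Timp2 (−0.66 as the mean of its probe sets, −0.01 and 0.00 after quantile normalization of 6 and 12 arrays, −0.03 after loess) and for Il6st (−0.03 as the mean). Among genes not called as deposited, Lyz2 was −0.12 and −0.14 after quantile normalization of 6 and 12 arrays, −0.07 centred, −0.13 after loess and −0.03 to 0.17 with an array left out. Nefm was −0.05 centred and −0.14 after loess, and Mbp −0.06 to 0.04 with an array left out. Averaged over probe sets Aqp4 (−0.79), Mbp (−0.41) and Cntfr (−0.20) were called lower, and the calls of Sfpq, Mmp9 and Efna1 were lost (0.15, 0.18 and 0.10). Cntfr was also called lower in a fit on the 6 arrays alone (−0.22), with array weights (−0.23) and with the replicate block (−0.22). The cause of these shifts was not tested.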

Other observations

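The list of pericyte and meningeal genes adds to the vessel and matrix lists. Of 23 pericyte and meningeal genes 7 were higher and 4 lower, 4 and 3 in 3 scalings, with a median of 0.07 as deposited and −0.01 after quantile normalization. Aldh1a2, which makes retinoic acid in the meninges, was 0.89 ± 0.15 and Kcnj8, a potassium channel of pericytes, 0.38 ± 0.05. Prg4, lubricin of joint and connective tissue, lay at 8.33, 8.95 and 9.04 on the sham arrays and 11.04, 10.74 and 9.77 on the injured arrays, and Gjb2, a connexin of the leptomeninges, at 8.60, 8.70 and 8.77 on the sham arrays and 9.89, 9.73 and 8.83 on the injured arrays. The latter 2 genes were lowest of the injured arrays on replicate 3. Fga, the fibrinogen alpha chain, was at least 1.49-fold higher, with no sham array above the absent controls. Ahnak, a large membrane-associated scaffold, was 0.86 ± 0.13 and, like Mgp, Ogn and Prg4, lowest of the sham arrays on replicate 1.

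The share of calls differed a little by gene length on the genome but did not follow it throughout. Split by span into 4 sets of like size, the shortest (0.06 to 9.02 kb) had a median change of 0.06 as deposited and 11% of genes higher in 3 scalings, and the longest (50.54 to 2390.39 kb) 0.14 and 15.7%. After quantile normalization the medians were −0.01 and 0.02. The higher calls in 3 scalings were 12.6% and 16.6% in the sets between them. From the shortest set to the longest the lower calls in 3 scalings were 9.42%, 8.46%, 8.42% and 11.9%. These are descriptions without a test.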
